A study of Rattus norvegicus with 6 samples.

Results

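The tubulin isotypes are the alpha-tubulin genes Tuba1a, Tuba1b, Tuba1c and Tuba8 and the beta-tubulin genes Tubb2a, Tubb2b, Tubb3, Tubb4b, Tubb5 and Tubb6, measured as mRNA in rat liver with and without fibrosis. They were chosen by symbol, and the 10 symbols matched 11 of the 19616 genes with deposited values, because Tuba1c was listed under 2 Ensembl identifiers. RNA from whole liver of male SD rats was sequenced after removal of ribosomal RNA, with 1 library per rat and 3 rats per group. The FL group (rats FL2, FL5 and FL12) was injected intraperitoneally with carbon tetrachloride (CCl4), which is toxic to hepatocytes, mixed 1:1 with olive oil. The dose was 2 mL/kg, given 2 times per week over 5 weeks. The CL group (rats CL5, CL6 and CL7) was given the same volume of olive oil. Both groups had the same genotype as far as the sources state it, and the age of the rats was not given in the sources used here.

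Microtubules are built from heterodimers of alpha- and beta-tubulin, and each subunit is encoded by a family of genes whose products differ mainly in their C-terminal tails. The isotypes are expressed in different mixtures in different cell types, and microtubules in the liver carry secretory vesicles in hepatocytes, form the spindle of dividing cells and take part in the shape and movement of myofibroblasts. Free tubulin lowers the stability of its own mRNAs, so that the levels of tubulin mRNAs are coupled to the state of the microtubules.

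Levels were given as FPKM, the fragments of a gene per length of its transcript and per mapped fragments of the library, so that genes can be compared with each other within a rat. Relative depth, read from the commonest value above 0 among the U6 small nuclear RNA genes, was 1 in CL5, 0.656 in CL6, 0.84 in CL7, 0.677 in FL2, 0.75 in FL5 and 0.677 in FL12. The liver identity of the libraries was checked with 7 hepatocyte markers, of which Alb was the most abundant, and their summed level was 50308 FPKM in CL5, 47877 in CL6 and 48368 in CL7, compared with 40840 in FL2, 42540 in FL5 and 41492 in FL12. None of the 7 hepatocyte markers was at 0 in any rat, and none passed the test between groups in limma at an adjusted p under 0.05 on the values as deposited, although Apoa1 did in 5 of 15 alternatives. Alb, Ttr and Hnf4a were lower in all FL rats than in all CL rats, and Tf and Apoa1 were higher. The log2 fold change of Alb was -0.38 with an SE of 0.976. Its level was 32270 ± 1010 FPKM (SD, n = 3) in the CL group and 24800 ± 572 FPKM (SD, n = 3) in the FL group. This SE was thus much larger than the spread between rats, because limma draws it towards a value taken from other genes. Ttr, Hnf4a, Tf and Apoa1 were named after their values were seen. The FL group was compared with the CL group on log2(FPKM + 0.1), a scale that understates the change of genes with low values. The threshold for a DEG was an adjusted p under 0.05 together with at least a 2-fold difference. Over the 14864 genes tested, the median log2 difference between the FL and the CL group was 0.29, and it was 0.08 after median scaling, -0.04 after quantile normalization and 0.46 after scaling to equal FPKM sums. The change of an isotype was therefore also expressed against this median.

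Of the 11 rows, 8 reached the mean of 0.1 FPKM needed for the test, and they represented 8 of the 10 symbols. Tubb6 was the only upregulated DEG among these 8, and 9.29% of all genes tested were upregulated DEGs. No isotype was a downregulated DEG with limma, against 0.935% of all genes tested. At an unadjusted p under 0.05 in limma, Tubb2a was lower in the FL group (0.0236). Tubb3 (0.0101), Tubb5 (0.00789) and Tubb6 (0.0009) were higher at this threshold. The share of all genes at an unadjusted p under 0.05 was not computed, so no comparison with it is made. Without the limit on the fold change, Tubb5 and Tubb6 were higher at an adjusted p under 0.05, as were 16.9% of all genes tested, and 0 isotypes were lower, against 1.94%. Of the 8, Tubb3, Tubb5 and Tubb6 had all FL rats above all CL rats, against 35.7% of all genes tested, and Tubb2a was the isotype with each FL rat below each CL rat, against 4.78% of genes. The shares of isotypes called or separated were thus of the order found over all genes, and the description below rests on the single genes. Because the tissue was whole liver, a change in the number of cells of a type and a change in the RNA per cell cannot be told apart.

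**Figure D1:**
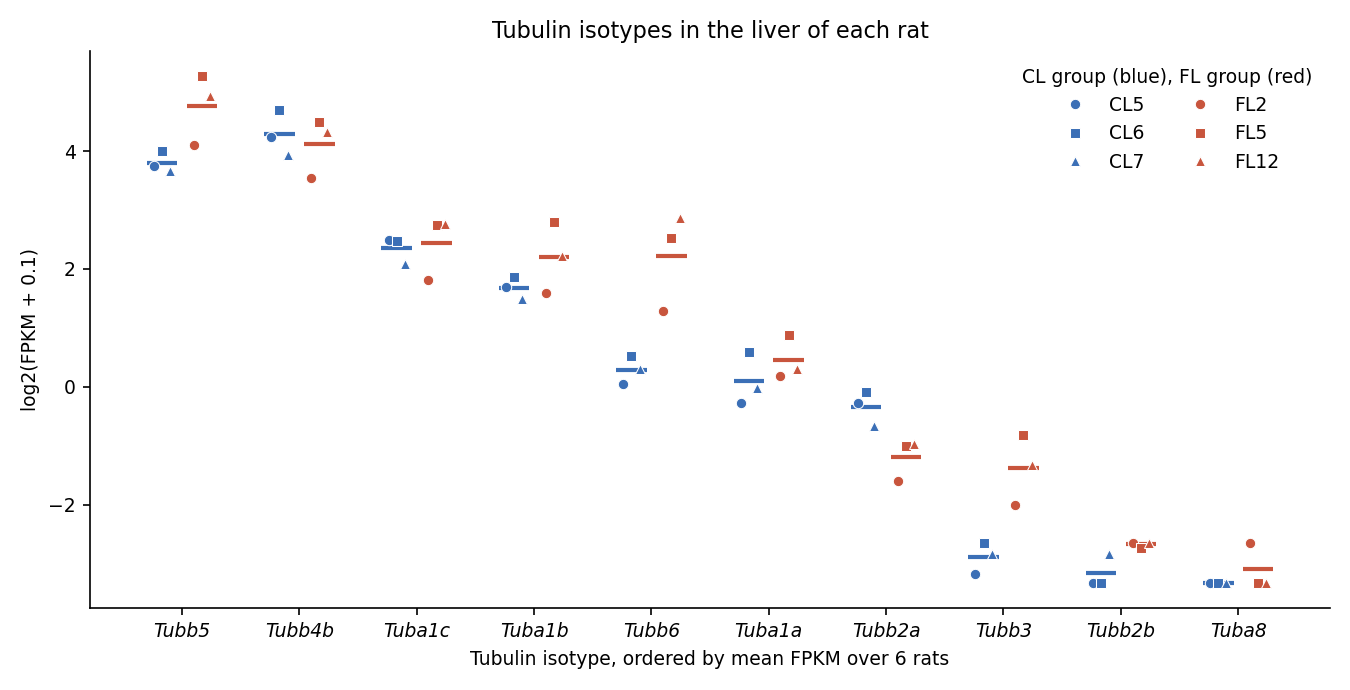
Level of 10 tubulin isotype rows in the liver of each rat, as log2(FPKM + 0.1) on the vertical axis, with 1 point per rat (CL group in blue, FL group in red) and a bar for the mean of each group of 3. FL rats lie above all CL rats for Tubb5, Tubb6, Tubb3 and, with values close to 0, Tubb2b, and below them for Tubb2a, and the Tuba1c row on chromosome 2, at 0 in all 6 rats, is left out.

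Tubb6, the class V beta-tubulin, was the isotype with the largest log2 fold change at a pseudocount of 0.1, whereas with a pseudocount of 0.01 Tubb3 had 2.80 and Tubb6 had 2.02. Its level was 0.93 FPKM in CL5, 1.33 in CL6 and 1.13 in CL7, compared with 2.35 in FL2, 5.65 in FL5 and 7.14 in FL12. The groups did not overlap, and FL2 lay closest to the CL group. The mean was 1.13 ± 0.20 FPKM (SD, n = 3) in the CL group and 5.05 ± 2.45 FPKM (SD, n = 3) in the FL group. On the log2(FPKM + 0.1) scale the gene was upregulated by 1.94 (SE 0.38, 95% confidence interval 1.07 to 2.81), with an adjusted p of 0.0134 in limma, and the change relative to the median of all genes was 1.65. The direction was kept under the 3 other scalings, with log2 fold changes of 1.72, 1.55 and 2.11 after median scaling, quantile normalization and scaling to equal FPKM sums. The call was lost without CL7 (adjusted p = 0.0517) and without FL5 (adjusted p = 0.0552), where the log2 fold changes were 1.95 and 1.79, and the adjusted p lay between 0.0017 and 0.0552 over all alternatives.

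Tubb5, the class I beta-tubulin that is present in most tissues, had the highest mean level of the isotypes, above 90.0% of all genes tested. Its level was 13.2 FPKM in CL5, 16.0 in CL6 and 12.6 in CL7, compared with 17.1 in FL2, 38.5 in FL5 and 30.6 in FL12. All FL rats were above all CL rats, but FL2 was close to CL6, whereas FL5 and FL12 were well above the CL range. The mean was 13.9 ± 1.77 FPKM (SD, n = 3) in the CL group and 28.7 ± 10.9 FPKM (SD, n = 3) in the FL group. Tubb5 had a log2 fold change of 0.97 (SE 0.28, 95% confidence interval 0.33 to 1.60), which is a fold change of 1.96, and the adjusted p was 0.0452 in limma. Tubb5 thus passed the test but not the limit on the fold change, and its change relative to the median of all genes was 0.68. The call at an adjusted p under 0.05 did not hold after median scaling (adjusted p = 0.0984) or quantile normalization (adjusted p = 0.102), without the filter on low values (0.0697) or the trend (0.0865), with a pseudocount of 1 (0.05002), nor when CL5, CL6, CL7, FL5 or FL12 was left out, and the adjusted p lay between 0.00416 and 0.144 over all alternatives.

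Tubb4b, a class IV beta-tubulin that is also widely expressed, was the most abundant isotype of the CL group. Its level was 18.8 FPKM in CL5, 25.8 in CL6 and 15.2 in CL7, compared with 11.6 in FL2, 22.4 in FL5 and 19.8 in FL12. The groups overlapped, with CL6 the highest and FL2 the lowest of the 6 rats. The mean was 19.9 ± 5.37 FPKM (SD, n = 3) in the CL group and 17.9 ± 5.66 FPKM (SD, n = 3) in the FL group, a difference smaller than the spread between rats. The log2 fold change was -0.17 (95% confidence interval -0.81 to 0.46, adjusted p = 0.677 in limma), and -0.46 relative to the median of all genes. The sign of the difference in Tubb4b turned after scaling to equal FPKM sums, where it was 0.0043, and also without CL6 (0.03) or without FL2 (0.11).

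The order of Tubb5 and Tubb4b was exchanged between the groups. The ratio of Tubb5 to Tubb4b was 0.705, 0.619 and 0.83 in CL5, CL6 and CL7, and 1.48, 1.72 and 1.54 in FL2, FL5 and FL12. Tubb4b was thus above Tubb5 in each of the 3 CL rats and below it in each of the 3 FL rats, and FL2, which was close to the CL group in the level of Tubb5, was not close to it in this ratio. A ratio within a rat does not depend on division of all its values by 1 factor, although it shows only that the 2 genes changed unequally. No test was made of this ratio, which was chosen after the values were seen.

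Tubb2a, a class II beta-tubulin with a close neighbour in Tubb2b on chromosome 17, was the isotype lower in all FL rats. Its level was 0.73 FPKM in CL5, 0.84 in CL6 and 0.53 in CL7, compared with 0.23 in FL2, 0.40 in FL5 and 0.41 in FL12. The groups did not overlap, and CL7 was the CL rat closest to the FL group. The mean was 0.70 ± 0.16 FPKM (SD, n = 3) in the CL group and 0.35 ± 0.10 FPKM (SD, n = 3) in the FL group. Tubb2a had a log2 fold change of -0.85 (SE 0.30, 95% confidence interval -1.55 to -0.15), with an adjusted p of 0.0883 in limma, and -1.14 relative to the median of all genes. Tubb2a did not pass the test on the values as deposited, but it was a downregulated DEG after median scaling, with a log2 fold change of -1.03 and an adjusted p that rounds to 0.05, and after quantile normalization, with -1.44 and 0.0184. The adjusted p lay between 0.0184 and 0.232 over all alternatives, and the sign was the same in each of them.

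Tubb2b, the other class II gene, was listed at 0 FPKM in CL5 and CL6, at 0.04 in CL7, at 0.06 in FL2 and FL12 and at 0.05 in FL5. It was under the limit for the test, and its values were too close to 0 to compare the groups. Tubb6 was on average 1.66 times as high as Tubb2a in the CL group and 13.9 times as high in the FL group, with ratios of 1.27, 1.58 and 2.13 in CL5, CL6 and CL7 and 10.2, 14.1 and 17.4 in FL2, FL5 and FL12. This ratio, too, was chosen after the values were seen and was not tested.

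Tubb3, the class III beta-tubulin known from neurons, was at 0.01 FPKM in CL5, 0.06 in CL6 and 0.04 in CL7, compared with 0.15 in FL2, 0.47 in FL5 and 0.30 in FL12. The groups did not overlap, and the highest value was in FL5. Tubb3 passed the filter on low values only through the FL group, because the mean of the CL group was 0.037 FPKM, so its place among the genes tested gives no support to a change of the isotypes. Its log2 fold change was 1.51 (SE 0.45, 95% confidence interval 0.47 to 2.55) with an adjusted p of 0.0519 in limma, and 1.22 relative to the median of all genes. Tubb3 did not pass the test, although it did without the filter on low values (adjusted p = 0.0391), without the trend of the prior variance (0.0329), after scaling to equal FPKM sums (0.038) and without FL2 (0.0265). The log2 fold change of Tubb3 lay between 0.33 with a pseudocount of 1 and 2.80 with a pseudocount of 0.01, and its adjusted p between 0.0265 and 0.17, so its size was set largely by the constant added to values near 0.

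Of the alpha-tubulins, Tuba1a, Tuba1b and Tuba1c lie next to each other on chromosome 7 in the RefSeq annotation. Tuba1c, with the Ensembl identifier ENSRNOG00000021438, was the most abundant alpha isotype among them. Its level was 5.53 FPKM in CL5, 5.47 in CL6 and 4.16 in CL7, compared with 3.42 in FL2, 6.62 in FL5 and 6.66 in FL12. FL5 and FL12 were above the CL rats and FL2 was below them, so the groups overlapped. The log2 fold change of Tuba1c was 0.09 (95% confidence interval -0.52 to 0.70, adjusted p = 0.837 in limma), and its sign turned after median scaling (-0.13) and quantile normalization (-0.21) and without CL7 (-0.045), FL5 (-0.068) or FL12 (-0.072). The second row of Tuba1c, ENSRNOG00000015544 on chromosome 2, was listed at 0 in all 6 rats and was not tested.

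Tuba1b, a widely expressed alpha-tubulin, was at 3.14 FPKM in CL5, 3.53 in CL6 and 2.70 in CL7, compared with 2.91 in FL2, 6.83 in FL5 and 4.56 in FL12. FL5 and FL12 were above the CL group, and FL2 was within its range. The mean was 3.12 ± 0.42 FPKM (SD, n = 3) in the CL group and 4.77 ± 1.97 FPKM (SD, n = 3) in the FL group. The log2 fold change of Tuba1b was 0.52 (SE 0.29, 95% confidence interval -0.14 to 1.18), with an adjusted p of 0.226 in limma, and 0.23 relative to the median of all genes. Tuba1b passed the test only without FL2, where the log2 fold change was 0.83 and the adjusted p was 0.0349, and its adjusted p lay between 0.0349 and 0.697 over all alternatives.

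Tuba1a, the alpha-tubulin known best from the developing brain, was the lowest of the 3 neighbours. It was at 0.73 FPKM in CL5, 1.40 in CL6 and 0.89 in CL7, compared with 1.03 in FL2, 1.74 in FL5 and 1.13 in FL12. The groups overlapped, with CL6 above FL2 and FL12. The log2 fold change of Tuba1a was 0.35 (95% confidence interval -0.33 to 1.03, adjusted p = 0.423 in limma), and it was -0.18 after quantile normalization. Tuba8 was listed at 0.06 FPKM in FL2 and at 0 in the other 5 rats, and it was not tested.

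**Figure D2:**
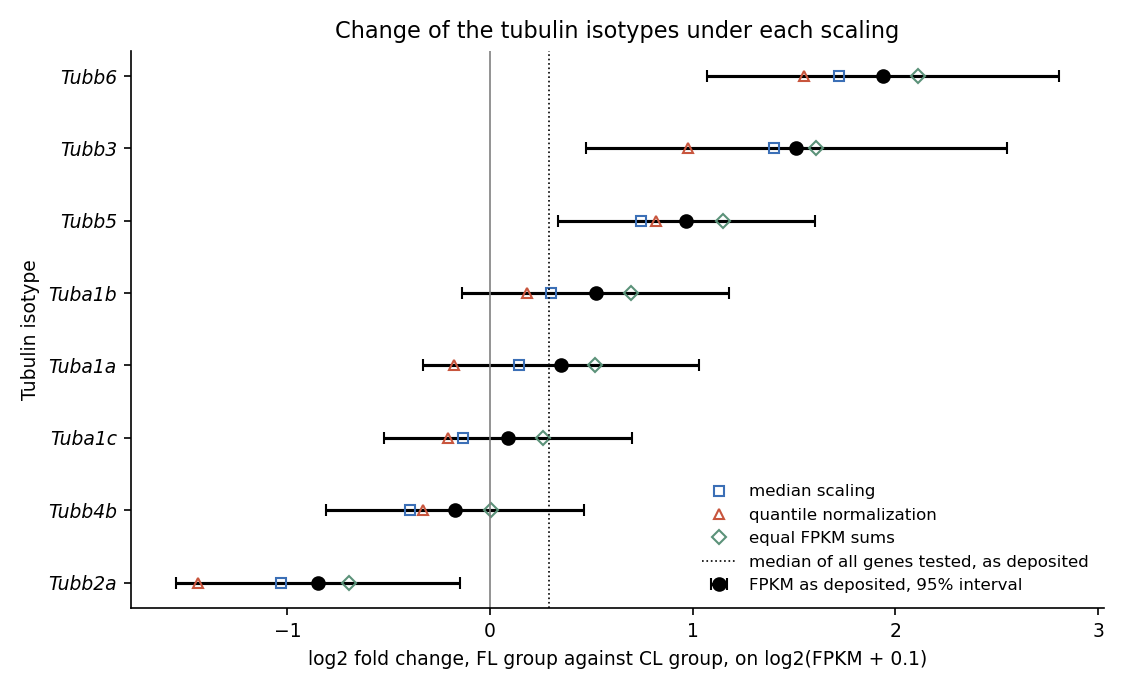
Log2 fold change of the FL group against the CL group for the 8 isotypes tested, on log2(FPKM + 0.1), with the 95% confidence interval of limma for the values as deposited (black) and the estimates under 3 other scalings (open symbols). The dotted line is the median of all genes tested, 0.29, and the estimates of Tuba1a, Tuba1c and Tubb4b lie on both sides of 0 depending on the scaling.

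The levels of the isotypes could be ordered within each group. In the CL group, Tubb4b and Tubb5 were the highest, followed by Tuba1c at 5.05 ± 0.77, Tuba1b at 3.12 ± 0.42, Tubb6 at 1.13 ± 0.20, Tuba1a at 1.01 ± 0.35, Tubb2a at 0.70 ± 0.16 and Tubb3 at 0.037 ± 0.025 FPKM (SD, n = 3). Of the neighbours in this order, the ranges overlapped for Tubb4b and Tubb5, for Tubb6 and Tuba1a and for Tuba1a and Tubb2a. In the FL group the order was Tubb5, Tubb4b, Tuba1c at 5.57 ± 1.86, Tubb6 at 5.05 ± 2.45, Tuba1b at 4.77 ± 1.97, Tuba1a at 1.30 ± 0.38, Tubb2a at 0.35 ± 0.10 and Tubb3 at 0.31 ± 0.16 FPKM (SD, n = 3). The ranges of Tubb5 and Tubb4b overlapped there, as did those of Tuba1c, Tubb6 and Tuba1b and those of Tubb2a and Tubb3.

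The rats within a group differed in the same way for most isotypes. FL2 had the lowest value of the FL group for 8 of the 8 isotypes tested, whereas it was the lowest of the FL group for 51.2% of all genes tested. FL5 was the highest of the group for Tubb5, Tubb4b, Tuba1b, Tuba1a and Tubb3, and FL12 for Tubb6, Tuba1c and Tubb2a. In the CL group, CL6 was the highest for 7 of the 8 isotypes, Tuba1c being the exception, against 42.2% of all genes tested. CL7 was the lowest of the CL group for 5 of the 8, against 40.5%.

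The isotypes were also read as shares of all alpha-tubulin and all beta-tubulin mRNA of a rat, with 8 rows of the table in each pool. Shares do not depend on division of all values of a rat by 1 factor, and they were not computed after quantile normalization. The beta pool, of which the isotypes made up 98.8% to 99.7% in each rat, summed to 34.0 FPKM in CL5, 44.2 in CL6 and 29.8 in CL7, compared with 31.8 in FL2, 67.7 in FL5 and 58.6 in FL12. The groups overlapped in this sum, because FL2 lay within the CL range.

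Tubb5 made up 38.9%, 36.1% and 42.4% of the beta pool in CL5, CL6 and CL7 and 53.7%, 57.0% and 52.2% in FL2, FL5 and FL12. Tubb4b made up 55.3%, 58.3% and 51.0% in the CL rats and 36.4%, 33.0% and 33.8% in the FL rats, in the same order. The groups did not overlap in either share. The share of Tubb6 was 2.73%, 3.01% and 3.79% in the CL rats and 7.40%, 8.35% and 12.2% in the FL rats, that of Tubb2a was 1.78% to 2.15% in CL rats but 0.591% to 0.724% in FL rats, and that of Tubb3 was 0.029% to 0.136% in CL rats but 0.472% to 0.695% in FL rats. FL2, whose beta-tubulin sum was within the CL range, lay outside the CL range in each of these 5 shares, with the lowest share of Tubb6 and the highest of Tubb4b among the FL rats. These 5 shares are parts of the same total, so that a lower share of Tubb4b raises the others, and they are not separate observations.

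The alpha pool summed to 38.1 FPKM in CL5, 40.8 in CL6 and 32.2 in CL7, compared with 23.4 in FL2, 36.7 in FL5 and 36.9 in FL12, and the groups overlapped. Most of it was Tuba4a, an alpha-tubulin that is not among the 10 symbols, with 74.3% to 75.8% of the pool in the CL rats and 58.5% to 68.2% in the FL rats. The share of the isotypes Tuba1a, Tuba1b, Tuba1c and Tuba8 together was 24.7%, 25.5% and 24.1% in CL5, CL6 and CL7 and 31.7%, 41.4% and 33.4% in FL2, FL5 and FL12. All FL rats were above all CL rats, and FL5 was the highest. Tuba1b alone made up 8.24%, 8.66% and 8.39% in the CL rats and 12.4%, 18.6% and 12.4% in the FL rats, again without overlap, whereas its FPKM level did overlap between the groups.

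The ratio of the alpha to the beta sum was 1.12, 0.922 and 1.08 in CL5, CL6 and CL7 and 0.737, 0.543 and 0.63 in FL2, FL5 and FL12. All FL rats were below all CL rats in this ratio. The shares and ratios were not tested, and how often such shares and ratios separate the groups over all genes was not computed. Of the single genes tested, 35.7% had all FL rats above all CL rats and 4.78% had them below. The authors kept uniquely mapped reads, and RefSeq lists 14 pseudogenes under the name of Tuba1b, 5 of Tuba1a, 4 of Tubb4b and 1 of Tuba4a, and 0 of Tubb5, Tubb6, Tubb2a, Tubb3 and Tuba1c. Only pseudogenes that bear the symbol of the gene were counted, so a count of 0 does not show that a gene has no copies. The part of pseudogene copies in the levels and shares was not tested.

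**Figure D3:**
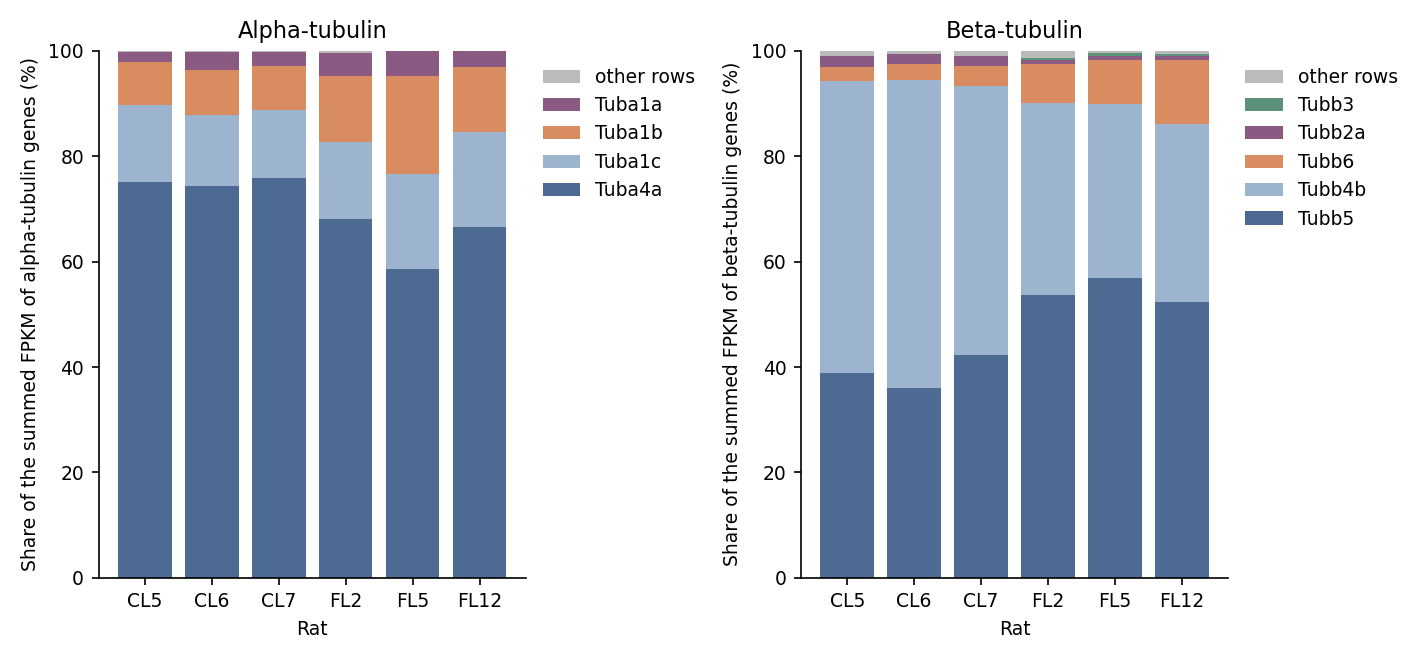
Share of each gene in the summed FPKM of the 8 alpha-tubulin rows (left) and the 8 beta-tubulin rows (right), in percent on the vertical axis, with 1 bar per rat; other rows are the remaining genes of the pool. Tubb5 takes 36.1% to 42.4% of the beta bars in the CL rats and 52.2% to 57.0% in the FL rats, and Tuba4a 74.3% to 75.8% and 58.5% to 68.2% of the alpha bars.

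Every list of markers but that of hepatocytes had a higher mean sum in the FL than in the CL group, as Tubb6, Tubb5 and Tubb3 had a higher mean level. This direction was therefore not particular to a type of cell. The 7 markers of stellate cells or myofibroblasts, the matrix-producing cells of the liver, summed to 69.9 FPKM in CL5, 75.0 in CL6 and 70.3 in CL7, compared with 187 in FL2, 522 in FL5 and 474 in FL12, and FL2 was the lowest FL rat here as it was for the isotypes. Of these 7 markers, 5 were upregulated DEGs, with log2 fold changes of 4.24 for Col1a1, 2.44 for Lum and 2.37 for Col3a1, the most abundant, and none was at 0 in a rat; Lum was a DEG in 10 of 15 alternatives, Col1a1 and Col3a1 in 15. The 5 markers of cycling cells summed to 2.39, 4.56 and 2.90 FPKM in the CL rats and to 4.04, 18.4 and 15.7 FPKM in the FL rats in the same order, so that FL2 lay within the CL range, and Birc5 (2.35) and Mki67 (1.73, the most abundant) were upregulated DEGs. Of the 15 alternatives, Birc5 was a DEG in 10 and Mki67 in 4. The 6 macrophage markers summed to 87.2, 79.5 and 81.8 FPKM in the CL rats and to 162, 177 and 122 FPKM in the FL rats, and Lyz2 (3.13), Cd68 (1.69) and Csf1r (1.13) were upregulated DEGs, while Clec4f, the most abundant, was not called. Csf1r fell under the fold limit after median scaling (0.906), after quantile normalization (0.93) and without FL5. The part of these cells in the levels of the isotypes was not tested.

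The 5 cholangiocyte markers summed to 5.63 FPKM in CL5, 10.5 in CL6 and 6.25 in CL7, compared with 12.5 in FL2, 68.3 in FL5 and 41.5 in FL12, mostly through Spp1, the most abundant and the only DEG (4.53), a call that ended without CL7 (adjusted p = 0.0508). The others, Sox9 (1.075), Epcam (0.33), Krt19 (-0.01) and Krt7 (-0.82), each overlapped between the groups and were named after their values were seen. The sum therefore describes Spp1 more than the list. The 4 endothelial markers with values summed to 59.0, 60.7 and 52.8 FPKM in the CL rats and to 74.8, 61.5 and 69.0 FPKM in the FL rats, with Kdr the most abundant and 0 DEGs of 4. Stab2 (0.75), named after its values were seen, passed the adjusted p without the fold limit, in 14 of 15 alternatives. The 6 lymphocyte markers summed to 1.11, 0.92 and 1.81 FPKM in the CL rats and to 2.62, 2.77 and 1.60 FPKM in the FL rats, with Nkg7 the most abundant and 0 DEGs of 4 tested. The part of these lists in the levels of the isotypes was not tested either.

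Neuron markers were looked at because of Tubb3. Elavl4 was at 0 in all 6 rats, and the 4 neuron markers with values summed to 0 FPKM in CL5, 0.03 in CL6 and 0 in CL7, compared with 0.06 in FL2, 0.20 in FL5 and 0.10 in FL12, with Syt1 the most abundant. Syt1 was at 0, 0.01 and 0 FPKM in the CL rats and at 0.06, 0.18 and 0.10 FPKM in the FL rats. Its order of FL rats was that of Tubb3, but FL2 was the lowest FL rat for 51.2% of all genes tested. Snap25 was at 0 except in CL6 (0.02 FPKM), and Rbfox3 was at 0 except in FL5 (0.02 FPKM). None of these neuron markers reached the limit for the test, and the part of neurons in the level of Tubb3 was not tested. The 5 markers of platelets or megakaryocytes, which use the beta-tubulin Tubb1, summed to 4.41, 2.83 and 3.07 FPKM in the CL rats and to 5.35, 6.80 and 7.75 FPKM in the FL rats. Pf4 was an upregulated DEG among these (1.73) and Itga2b, the most abundant, was not, and Tubb1 itself was between 0.14 and 0.35 FPKM in the 6 rats, with overlap.

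Other tubulin genes had no DEG, and 5 of 9 rows were tested. Tuba4a was at 28.6 FPKM in CL5, 30.3 in CL6 and 24.4 in CL7, compared with 16.0 in FL2, 21.5 in FL5 and 24.6 in FL12, so that only FL12 reached the CL range. Tuba4a had a log2 fold change of -0.44 (limma, adjusted p = 0.113), and -0.73 relative to the median of all genes. It passed the adjusted p after median scaling (-0.665, 0.0266), without reaching the fold limit, and in no other alternative. The gamma-tubulin Tubg1, which nucleates microtubules, had a log2 fold change of 0.14, the delta-tubulin Tubd1 of 0.18, the epsilon-tubulin Tube1 of -0.38 and Tubb1 of -0.18, each with overlap between the groups. Tuba3a, Tuba3b, Tubb4a and Tubg2 were at 0.08 FPKM or less in every rat.

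Before a heterodimer forms, tubulin is folded by prefoldin and the chaperonin CCT and then handled by folding cofactors. Of 6 rows tested in the cofactor list, 1 was an upregulated DEG, and this was Tbcel, a relative of cofactor E and not cofactor E itself. Tbcel was at 2.32, 2.15 and 2.22 FPKM in the CL rats and at 3.68, 5.44 and 6.05 FPKM in the FL rats (log2 fold change 1.12, adjusted p = 0.0101 in limma). It passed the adjusted p in all 15 alternatives but fell under the fold limit in 4, among them median scaling (0.898) and quantile normalization (0.756), and the others were a pseudocount of 1 and the fit without FL12. Tbca, the most abundant cofactor, was not called, and neither were Tbcc, Tbcd, Tbce and Arl2. The median log2 fold change of the 6 rows was 0.30, against 0.29 for all genes tested. Of the 14 subunits of CCT and prefoldin, 0 were DEGs, the median was 0.31, and Tcp1, the most abundant, had -0.10. Cct7 (0.53) and Vbp1 (0.85), named after their values were seen, passed the adjusted p without the fold limit, in 7 and 14 of 15 alternatives.

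Enzymes that modify tubulin had 1 upregulated DEG of 15 rows tested, the deglutamylase Agtpbp1 (log2 fold change 1.03), and a median of 0.39. Agtpbp1 was a DEG in 5 of 14 alternatives: it was not after median scaling (adjusted p = 0.0648) or quantile normalization (0.218), without the filter on low values (0.0587), with a pseudocount of 1, or when any rat but FL2 was left out. Sirt2, the most abundant, was not called, and Vash1, a detyrosinating enzyme named after its values were seen, passed without the fold limit (0.84), in 10 of 15 alternatives. Of the 4 genes of tubulin mRNA autoregulation, Ttc5, Scaper, Cnot1 and Cnot11, 0 were called, and the median was 0.26, with Cnot1 the most abundant. The gamma-tubulin complex had 0 DEGs of 10 and a median of 0.25, with Tubgcp2 the most abundant.

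Proteins that bind microtubules or their ends had 4 upregulated DEGs and 1 downregulated DEG of 24, and a median of 0.36. Map1a (1.70), Map6 (1.58), Map1s (1.20) and Clip2 (1.19) were upregulated, Tppp3 (-1.03) was downregulated, and Mtus1, the most abundant, was not called. Map1a and Map6 passed the filter on low values only through the FL group, with CL means of 0.037 and 0.097 FPKM, and over the alternatives their log2 fold changes lay between 0.39 and 2.92 and between 0.43 and 2.31, so their calls give no support to a change of the list. The calls of all 5 depended on the scaling and on single rats. None of the 4 upregulated genes was a DEG after quantile normalization (adjusted p = 0.103, 0.115, 0.142 and 0.146 in the order above), with a pseudocount of 1, or without CL5, CL7, FL5 or FL12, and without CL6 this held for Map1a and Clip2. Map1s and Clip2 also fell under the fold limit after median scaling (0.994 for Clip2), and Clip2 did not pass without the filter on low values (adjusted p = 0.0518). Tppp3 was not a DEG with equal FPKM sums (adjusted p = 0.0629), without the filter on low values (0.0608), with a pseudocount of 1, or when any rat but FL12 was left out. Ckap5 (0.77), named after its values were seen, passed the adjusted p without the fold limit, in 8 of 15 alternatives. Of 9 destabilizers and severing enzymes tested, Stmn1, which binds free tubulin dimers and was the most abundant, was the only DEG. Stmn1 was at 1.01, 1.93 and 1.26 FPKM in the CL rats and at 2.65, 8.17 and 5.68 FPKM in the FL rats (log2 fold change 1.81, adjusted p = 0.0208 in limma). It was a DEG in 10 of 15 alternatives, and not after quantile normalization (adjusted p = 0.0569) or without CL5, CL7, FL5 or FL12.

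The medians of all these lists lay between 0.25 and 0.39 on the values as deposited, except for the other tubulin genes at -0.18, and the median of the 8 isotypes tested was 0.44. After quantile normalization the median of the isotypes was 0.002 and those of the other lists lay on both sides of 0, so the lists gave no common direction that held under each scaling.

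The protein-coding genes most alike to Tubb5 over the 6 rats, by Pearson's r of log2(FPKM + 0.1), were Ckap4 (0.998), Dnajc14 (0.993) and Cdk11b (0.992). Those most alike to Tubb6 were Setdb1 (0.999), Yeats2 (0.998) and LOC100912012, described as tetranectin-like (0.998). These values of r include the difference between the groups, and of the 10146 genes compared 1227 reached an r of 0.9 with Tubb5 and 1746 with Tubb6. Among the 28 pairs of isotypes, r over the 6 rats lay between -0.6 and 0.966, and it was 0.951 for Tubb5 and Tubb6, 0.966 for Tubb5 and Tubb3, 0.962 for Tubb6 and Tubb3, 0.94 for Tubb5 and Tuba1b, 0.849 for Tubb3 and Tuba1b, 0.79 for Tubb6 and Tuba1b and -0.567 for Tubb6 and Tubb2a.

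The promoters of the isotypes were described by their letters, with no relation to the levels tested. All 10 symbols matched the RefSeq promoters of the build GRCr8, each with 250 bases before and 50 after the start of the gene. The TATA box was searched as TATAAA, the CCAAT box by the letters of its name and the GC box as GGGCGG, each on both strands. No base belonged to more than 1 match in Tubb5 or Tubb6. At least 1 CCAAT was found in 8 of 10 isotype promoters, against 37.7% of 27457 promoters, and at least 1 GGGCGG in 8 of 10, against 34.9%. TATAAA was found in 2 of 10, Tubb2a and Tubb4b, against 14.3% of all promoters. The window of Tubb5 was 62.3% GC and that of Tubb6 70.7%, against a median of 52.3% over all promoters.

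The 250 bases before the start are given for Tubb5 and Tubb6, the isotypes that passed the adjusted p, 5′ to 3′ on the strand of the gene, with matches in capitals. Tubb5 lies at chr20:2917327-2917576 on the + strand and Tubb6 at chr18:63213037-63213286 on the + strand, both upstream of the annotated start and outside the transcript. Each holds 1 CCAAT and 3 GGGCGG on either strand and no TATAAA. A match describes the letters and is not a measured binding site.
Tubb5: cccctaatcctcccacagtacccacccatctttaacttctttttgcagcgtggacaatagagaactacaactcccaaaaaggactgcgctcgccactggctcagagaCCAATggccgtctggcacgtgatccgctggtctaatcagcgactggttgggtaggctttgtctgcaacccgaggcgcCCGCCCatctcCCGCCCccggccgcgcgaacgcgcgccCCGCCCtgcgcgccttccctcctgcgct
Tubb6: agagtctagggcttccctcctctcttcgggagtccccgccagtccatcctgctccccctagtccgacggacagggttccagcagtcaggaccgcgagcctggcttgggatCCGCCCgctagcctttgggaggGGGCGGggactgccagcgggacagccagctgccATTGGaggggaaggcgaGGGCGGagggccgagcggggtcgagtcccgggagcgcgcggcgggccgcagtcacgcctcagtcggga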

How the data were processed

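The values were those of 6 rat livers, 3 per group, each with 1 library, and groups were taken from the labels. Trimmed reads were aligned by the authors with TopHat2, reads mapped uniquely to a gene were counted, and the table they deposited holds FPKM with 2 decimals. The submitters' notes name the genome as GRCh38, whereas the gene identifiers are Ensembl's for the rat, and no scaling between rats is stated. In the same table, 2 further columns of values were not used, because no sample bears their names. Read counts were not used here, so the depth of each rat is given only relative to the others, and values near 0.1 FPKM rest on few reads.

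The FL group was compared with the CL group by limma 3.58.1 (R 4.3.3) on log2(FPKM + 0.1), with the trend option of its empirical Bayes step. The 14864 genes whose mean reached 0.1 FPKM were tested. All adjusted p-values are limma's, two-sided, and adjusted in each setting by Benjamini-Hochberg over the genes that setting tested. They set the difference against the spread between separate rats, which limma draws towards a value taken from the other genes. For genes of very high level, such as Alb, that value can outweigh the gene's own spread. Because the values are not counts, no count model was fitted, and the procedure was tested on simulated data. The threshold for DEGs was an adjusted p under 0.05 together with at least a 2-fold difference. Shares, ratios and correlations were described without a test.

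The isotypes and the lists of other genes were chosen with earlier results of these data known. Genes named were the isotypes, every other tubulin gene with values, of each list the DEGs (up to the 3 with the largest change) and the most abundant gene, and the 3 genes most alike to Tubb5 and to Tubb6 among those with a mean of at least 1 FPKM; further genes are named as chosen after their values were seen. Of the list genes, Tubal3, Svbp, Agbl4, Stmn2, Stmn4, Elavl3 and Pecam1 were not analysed here. Clip2 and Tppp3 were named as part of a count of 5.

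As alternatives, the pseudocount was set to 1 or 0.01, and the filter was dropped or raised to 1 FPKM. Rats were rescaled by median ratios over 9201 genes, by quantiles or to equal FPKM sums, limma was run without the trend and with its robust option, and each rat was left out in turn. Neighbours, pseudogenes and promoters came from RefSeq on GRCr8. Tables and figures were made with Python 3.11.15, numpy 2.4.6, pandas 2.3.3 and matplotlib 3.10.9.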

Additional observations from a re-analysis of the deposited data

How the results depend on the processing

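Tubb6 was upregulated at an adjusted p under 0.05 in limma in every alternative but those without CL7 and without FL5, where 0 isotypes passed. The count of upregulated isotypes, 1 on the values as deposited, was 2 without the filter on low values and 2 without trend (Tubb3 and Tubb6), and 3 with equal FPKM sums (Tubb3, Tubb5 and Tubb6). With 1 rat left out it lay between 0 and 3, the highest without FL2. The count of downregulated isotypes was 1, Tubb2a, after median scaling and after quantile normalization, and 0 in the other alternatives. Without the fold limit, 2 isotypes passed on the values as deposited (Tubb5 and Tubb6) and 1 with a pseudocount of 1 (Tubb6). With equal FPKM sums 3 passed (Tubb3, Tubb5 and Tubb6). After median scaling and quantile normalization the 2 were Tubb2a and Tubb6, and without the filter or trend Tubb3 and Tubb6. With 1 rat left out, the count lay between 0 (without CL7 or FL5) and 4 (without FL2). Of all genes tested, 2518 were higher and 288 lower without the fold limit on the values as deposited. These were 3939 and 191 with equal FPKM sums, 3198 and 338 without FL2, 938 and 125 without CL7 and 1003 and 179 without FL5. Tubb5 lost its call in 10 of 15 alternatives, with log2 fold changes between 0.72 and 1.30 over all of them. Signs turned for Tubb4b with equal FPKM sums (0.0043), for Tuba1c after median scaling (-0.13) and quantile normalization (-0.21), and for Tuba1a after quantile normalization (-0.18). With 1 rat left out, the log2 fold change of Tubb4b lay between -0.36 and 0.11, above 0 without CL6 or FL2, and that of Tuba1c between -0.072 and 0.40, below 0 without CL7, FL5 or FL12. The cause of these changes was not tested. The ratio of the FL to the CL group in the summed alpha-tubulin FPKM was 0.874, and it was 0.745 after median scaling and 1.0 with equal FPKM sums, and lay between 0.812 and 0.995 with 1 rat left out. For beta-tubulin it was 1.46, and 1.25, 1.7 and 1.26 to 1.75 in the same order. Quantile normalization was not run for these sums. Over all genes tested there were 1381 upregulated and 139 downregulated DEGs, against 453 and 231 after quantile normalization, 826 and 181 after median scaling, 1993 and 120 with equal FPKM sums, 462 and 72 with a pseudocount of 1, 1313 and 116 without trend, 1831 and 160 without FL2, 740 and 81 without CL7, 745 and 127 without FL5, and 1206 and 114 of 19097 genes without the filter on low values. No paired analysis was made, because the rats of the CL and FL groups were different animals, and the number 5 in both groups does not link CL5 to FL5. Values of Tubb3, Tubb2b and Tuba8 near 0 are limited by depth.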
